A study of Mus musculus with 18 samples.

Results

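The genes described here encode 3 signal transducers and activators of transcription (Stat2, Stat3 and Stat6) and 6 interferon regulatory factors (Irf1, Irf3, Irf5, Irf7, Irf8 and Irf9). They were the rows of the expression table whose symbol matched a named list, and all 9 were found among 25926 genes. They were measured by RNA-seq in macrophages grown from bone marrow (BMDMs), 6 samples in each of 3 groups, from C57BL/6J mice (C57BL/6 in the strain label). In all groups the BMDMs had been grown from marrow in M-CSF, the macrophage growth factor, at 50 ng/mL for 7 days, and then shared medium, across a Transwell membrane with 0.4 μm pores, with tubular epithelial cells (TECs) from wild-type mouse kidney in the chamber beneath. In the NC group the BMDMs received PBS above untreated TECs. In the COM group PBS was again given to the BMDMs, above TECs exposed to COM (calcium oxalate monohydrate crystals) at 100 μg/mL for 24 h. In the COM+Met group the TECs were exposed to COM in the same way and the BMDMs were treated with Met at 5.0 mM for 24 h; the labels do not spell out Met. The protocol text shared by all samples names both crystal groups in its sentence on Met and could be read as giving Met to COM as well; the treatment label of each sample, which gives PBS for COM, was followed, and every comparison with COM rests on it. No group is labelled as Met without COM. Whether samples of a group came from separate mice or cultures is not stated in the labels, and the p-values therefore cover the spread among these samples alone, part or all of which could be technical.

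STAT proteins wait in the cytoplasm until a cytokine receptor and its Janus kinases phosphorylate them, after which they pair and enter the nucleus. Type I interferon pairs STAT2 with another STAT, and IRF9 joins them to form ISGF3, the complex that binds the interferon-stimulated response element of antiviral genes. IRF3 and IRF7 are phosphorylated downstream of nucleic acid sensors and switch on the type I interferon genes themselves, while IRF1, IRF5 and IRF8 act on antigen presentation and inflammatory cytokine genes in macrophages, and STAT3 and STAT6 carry the signals of cytokines such as IL-6, IL-10 and IL-4. Because much of this control is by phosphorylation, mRNA levels do not report the activity of these factors.

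Promoter windows of the 9 genes were searched to show which of them carry, near their own start, the letters that this protein family recognises. RefSeq windows on GRCm38.p6, each from 250 bases before to 50 bases after a start, gave 12 windows for the 9 genes, since Irf1, Irf8 and Irf9 have several. The letters GAAANNGAA, the core of the interferon-stimulated response element, were found on either strand in 1 of the 9 genes and in 8.56% of 32851 windows of all genes. The letters TTCNNNGAA, the gamma-activated sequence bound by STAT dimers, were found in 2 of the 9 genes and in 8.30% of all windows. The letters GGNNNTTCC, of the type bound by NF-kappa B, were found in Irf3 and Stat3 and in 18.5% of all windows. The stretches with the first and second of these are given 5′ to 3′ on the gene's strand, and capitals mark the match. They lie at chr10:128270252-128270310 (plus strand) for Stat2, where the match is on the reverse complement and begins 221 bases before the start; at chr11:53769899-53769957 (plus strand) for Irf1, 90 bases before the start; and at chr8:120736162-120736238 (plus strand) for Irf8, with 2 matches, 171 and 153 bases before the start.
Stat2: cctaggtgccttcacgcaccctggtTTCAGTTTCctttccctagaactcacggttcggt
Irf1: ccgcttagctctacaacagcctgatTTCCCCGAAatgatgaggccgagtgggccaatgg
Irf8: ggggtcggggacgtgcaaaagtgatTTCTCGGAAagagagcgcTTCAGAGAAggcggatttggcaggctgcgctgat
A match is a description of these letters only, and a window without a match says nothing about binding elsewhere. All 3 genes with such a stretch had a higher level in COM than in NC, by the tests given with each gene, but so had Irf7, Irf9 and Stat3, whose windows hold neither.

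The values are FPKM, fragment counts scaled to gene length and library total, so that levels of different genes can be set side by side, while the read depth behind each value is unknown and no counting interval could be given. The 12 macrophage markers examined, among them Adgre1, Csf1r and Lyz2, all averaged 1 FPKM or more in each group. Summed levels of 12 neutrophil markers ranged from 539 to 1022 FPKM in NC, from 175 to 555 in COM and from 75.6 to 140 in COM+Met. Mmp8 had the highest mean of them in each group, at 336, 175 and 68.7 FPKM. Mpo, Elane and Retnlg were at 0 in every COM and COM+Met sample, but at most 0.263, 1.07 and 0.307 FPKM in NC. Not all of these markers fell. Camp was at 8.01 to 10.2 FPKM in COM-1 to COM-5 and 2.57 in COM-6, against 1.74 to 6.94 in NC. The 16 tubular epithelial markers summed to between 11.0 and 18.2 FPKM in NC, nearly all of it Cdh1, which macrophages can express, and to at most 1.37 in COM. Dendritic cell markers, without the interferon-induced Bst2, summed to between 7.60 and 30.7 FPKM in NC, 68.8 and 229 in COM and 42.6 and 81.1 in COM+Met, of which Ccr7 was the largest part in COM and COM+Met, while Siglech and Ly6d were at or near 0. B cell markers reached at most 0.758 FPKM and T and NK cell markers at most 3.58. The part of these other markers in the results below was not tested, and in bulk RNA fewer cells of a type cannot be told apart from less RNA per cell.

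Samples within a group were not alike. Over 10751 genes, Pearson's r between samples of a group ranged from 0.938 to 0.995 in NC, from 0.888 to 0.995 in COM and from 0.989 to 0.995 in COM+Met. NC-5 and NC-6 stood apart from the other NC samples, and the COM samples fell into COM-1 to COM-3, COM-4 with COM-5, and COM-6. S100a8, a neutrophil and monocyte gene, was at 276 to 301 FPKM in COM-1 to COM-3 and at 28.4 to 56.4 in COM-4 to COM-6. The labels name no batch, so that results which rest on these samples are given with and without them.

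In NC the highest of the 9 genes were Irf5, at 92.8 ± 27.5 FPKM (SD, n = 6), and Stat6, at 70.1 ± 2.93 FPKM. Irf8, Stat3 and Irf1 followed at 35.6 ± 7.14, 33.9 ± 3.15 and 33.7 ± 11.4 FPKM. Stat2 (16.1 ± 3.97), Irf3 (15.1 ± 1.38), Irf9 (12.4 ± 4.79) and Irf7 (8.52 ± 4.22 FPKM) were lowest. The ranges of neighbours in this order overlapped except between Stat6 and Irf8. In COM, Irf7 was first at 594 ± 193 FPKM and did not overlap the next gene, Stat2 (86.4 ± 38.9). Irf1, Irf5, Irf8, Stat6 and Stat3 came after it with ranges that overlapped from one neighbour to the next, and Irf9 (32.4 ± 2.42) and Irf3 (12.5 ± 3.88) were last and separate. In COM+Met the order was Irf7, Irf1, Stat2, then Stat6, Irf5 and Irf8 with overlapping ranges, then Stat3, Irf9 and Irf3, and all other neighbours were separate. Irf7 thus went from the lowest mean of the 9 in NC to the highest in COM and COM+Met.

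**Figure D1:**
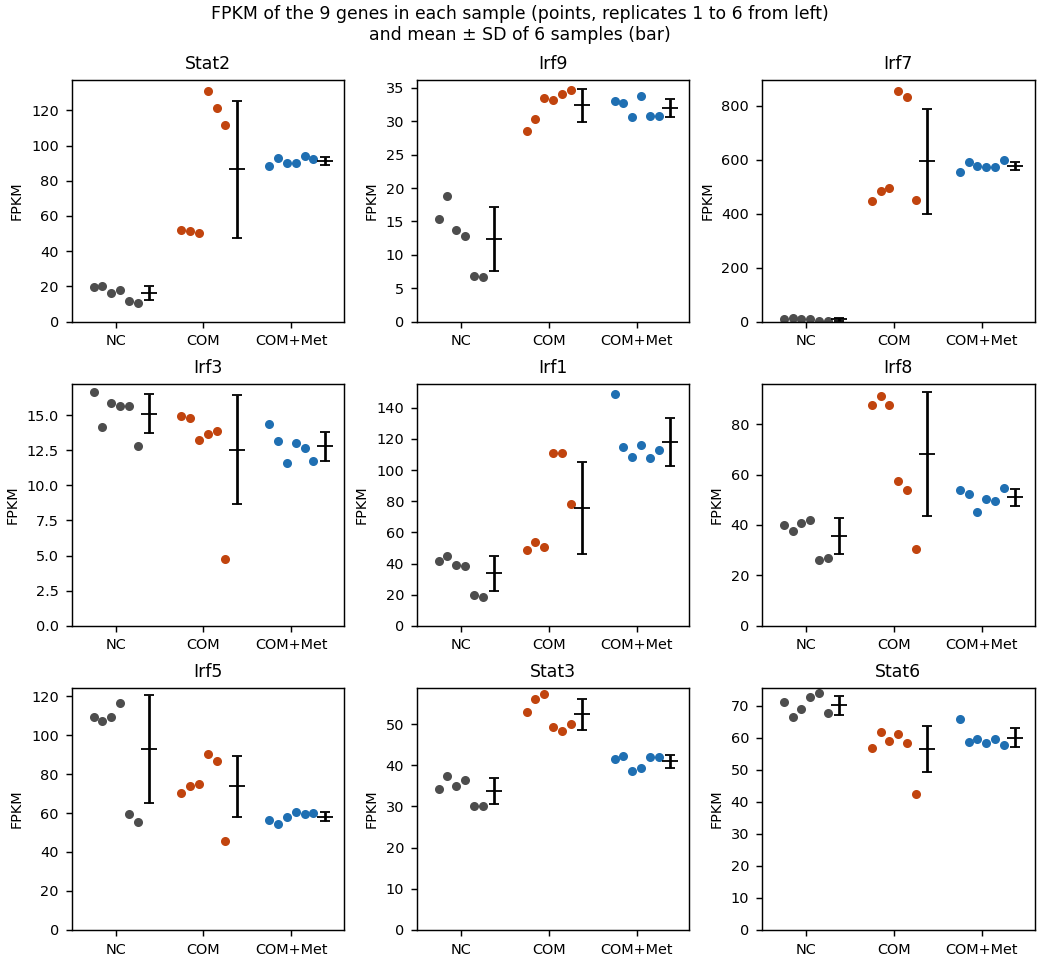
Each panel plots the FPKM (vertical axis, from 0) of 1 gene in the 18 samples, with groups on the horizontal axis, replicates 1 to 6 from left to right as points, and the mean ± SD of 6 samples as a bar. Irf7, Stat2, Irf9 and Irf1 lie higher in all COM and COM+Met samples than in all NC samples, the COM samples of Stat2, Irf1 and Irf8 split by replicate number, and Irf3 is low in COM-6 at 4.73 FPKM.

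The share of each gene in the summed FPKM of the 9 describes the same shift within the family. The sum was 318 ± 60.8 FPKM in NC, 1052 ± 257 in COM and 1042 ± 16.9 in COM+Met (SD, n = 6). Irf7 made up 2.54% of it in NC, 55.7% in COM and 55.5% in COM+Met. Irf5 made up 28.6%, 7.10% and 5.59%, and Stat6 22.9%, 5.56% and 5.76%. These shares are bound to each other by their sum of 100%, so that a fall in a share is not a fall in level.

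**Figure D2:**
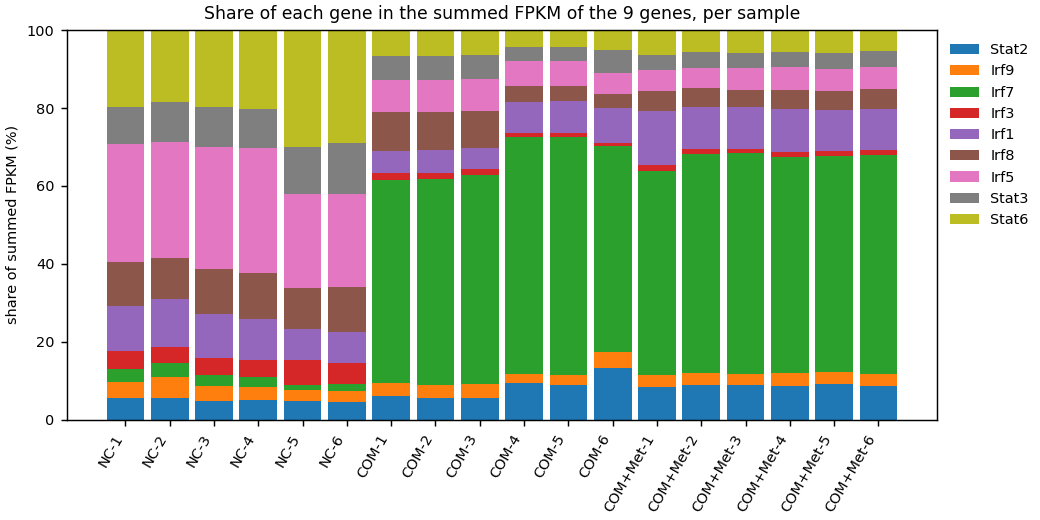
Stacked bars give the share (%) of each of the 9 genes in their summed FPKM, with 1 bar for each of the 18 samples in the order NC, COM, COM+Met. Irf7 takes between 52.1% and 61.2% of the sum in every COM sample and at most 3.80% in every NC sample.

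COM against NC asks how macrophages above crystal-exposed TECs differ from those above untreated TECs. Irf7, Stat2, Irf9 and Irf1 rose more than 2-fold and their groups did not overlap. Stat3 rose less than 2-fold and without overlap, Irf8 was higher by less than 2-fold with overlapping groups, and Stat6 was lower in all COM samples. Irf3 and Irf5 did not pass the test. A gene was called when its adjusted p in limma (Benjamini-Hochberg over all 10900 genes tested) was below 0.05 and its change at least 2-fold on the log2(FPKM + 1) scale. By this rule 4 of the 9 genes were higher, against 5.99% of all genes tested, and 0 lower, against 11.7%. By the adjusted p alone 6 were higher, against 12.7%, and 1 was lower, against 40.6%. Groups did not overlap, with COM higher, for 5 of the 9, against 8.6% of all genes, and with COM lower for 1, against 29.7%. The 9 had a median log2 fold change of 0.84 and all genes tested one of -0.27.

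The scale of the values mattered for the small changes. When FPKM were first divided by size factors (median of ratios), the median over all genes was 0.01, and 874 genes were called higher and 811 lower, in place of 653 and 1273 with the values as deposited. By the adjusted p alone, 2578 genes were then higher and 2544 lower of 10875 tested, in place of 1382 and 4423 of 10900, so that the shares beside the counts of the 9 genes depend on this scale as well. Relative to the median of all genes, the log2 fold changes were 6.32 for Irf7, 2.53 for Stat2, 1.67 for Irf9, 1.40 for Irf1, 1.11 for Irf8, 0.89 for Stat3, and -0.05, -0.03 and -0.05 for Irf3, Irf5 and Stat6.

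Irf7 (chromosome 7, 141262706 to 141266481, minus strand, GENCODE M21 on GRCm38), the regulator that amplifies interferon production, had the largest change of the 9. Its lowest, median and highest levels were 3.29, 9.37 and 13.7 FPKM in NC, and 449, 490 and 854 FPKM in COM. The groups were far apart, and within COM the samples COM-4 and COM-5 (854 and 831 FPKM) were higher than the other 4 (449 to 496). The mean level was 69.7-fold higher in COM, with a log2 fold change of 6.05 (SE 0.32, limma adjusted p = 3.62e-08, exact permutation p = 0.00216, two-sided). This exact p is the smallest that 6 against 6 samples can give. It was the 7th largest rise among the genes called higher.

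Stat2 (chromosome 10, 128270559 to 128292849, plus strand) and Irf9 (chromosome 14, 55603571 to 55610030, plus strand) encode the parts of ISGF3 covered here. Stat2 was at 10.6, 17.0 and 20.2 FPKM (lowest, median and highest) in NC and at 50.5, 82.1 and 131 FPKM in COM. COM-1 to COM-3 lay between 50.5 and 52.2 FPKM and COM-4 to COM-6 between 112 and 131, all above NC. The log2 fold change was 2.26 (SE 0.28, limma adjusted p = 3.48e-05, exact permutation p = 0.00216), or 5.38-fold in the means. Without COM-4, COM-5 and COM-6 it was 1.65 (limma adjusted p = 0.000104). Irf9 was at 6.72, 13.3 and 18.8 FPKM in NC and at 28.5, 33.3 and 34.7 FPKM in COM. Unlike Stat2, it was even across the COM samples, with a coefficient of variation of 7.47% against 45.0% for Stat2. In NC, Irf9 was less even (38.7%), at 12.8 to 18.8 FPKM in NC-1 to NC-4 and at 6.81 and 6.72 in NC-5 and NC-6. Its log2 fold change was 1.40 (SE 0.22, limma adjusted p = 0.000188, exact permutation p = 0.00216). Without NC-5 and NC-6 it was 1.06 (limma adjusted p = 5.43e-05) and with limma's sample weights 1.07, still called but close to 2-fold. Exons of Irf9 overlap those of Rnf31 by 123 bases on the same strand, and reads there could be counted for either gene.

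Irf3 (chromosome 7, 44997648 to 45002848, plus strand), which responds to nucleic acid sensing alongside IRF7 and is made in most cells, was at 12.8, 15.6 and 16.6 FPKM in NC and at 4.73, 13.8 and 15.0 FPKM in COM. The groups overlapped, and COM-6 lay far below the other COM samples. Its log2 fold change was -0.32 (SE 0.22, limma adjusted p = 0.231, exact permutation p = 0.0952), with an interval of about 2 SE from -0.76 to 0.11. Without COM-6 it was -0.09 (SE 0.07, limma adjusted p = 0.305). Of this pair Irf7 passed the test and Irf3 did not.

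Irf1 (chromosome 11, 53770014 to 53778374, plus strand) drives immunoproteasome, antigen presentation and guanylate-binding protein genes. It was at 18.7, 38.5 and 44.9 FPKM in NC and at 48.5, 65.9 and 111 FPKM in COM. Every COM sample was above every NC sample, but COM-1 to COM-3 (48.5 to 53.6 FPKM) were close to NC-1 to NC-4 (38.2 to 44.9), and NC-5 and NC-6 were lowest at 20.1 and 18.7. COM was higher by 1.13 on the log2 scale (SE 0.29, limma adjusted p = 0.0053, exact permutation p = 0.00216). Without COM-4, COM-5 and COM-6 this was 0.66 with a limma adjusted p of 0.0776, without NC-5 and NC-6 it was 0.78, and with limma's sample weights 0.43, so that Irf1 was no longer called in any of the 3. Leaving out NC-5 alone or NC-6 alone gave 1.00 and 0.98, just under 2-fold.

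Irf8 (chromosome 8, 120736358 to 120756694, plus strand), a lineage factor of monocytes and dendritic cells, had the opposite order among the COM samples. It was at 26.1, 38.9 and 41.9 FPKM in NC and at 30.3, 72.5 and 91.0 FPKM in COM. COM-1 to COM-3 were highest at 87.5 to 91.0 FPKM, COM-4 and COM-5 were at 57.6 and 53.8, and COM-6 fell within the NC range. Its log2 fold change was 0.84 (SE 0.25, limma adjusted p = 0.0136, exact permutation p = 0.0152). Without NC-5 and NC-6 it was 0.65 and the limma adjusted p was 0.0806, whereas without COM-6 it was 1.05, without COM-4 to COM-6 1.32, with size factors 1.16 and with sample weights 1.12, and Irf8 was then called.

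Irf5 (chromosome 6, 29526625 to 29541871, plus strand), which acts downstream of Toll-like receptors on inflammatory cytokine genes, was at 55.6, 108 and 116 FPKM in NC and at 45.7, 74.4 and 90.5 FPKM in COM. The groups overlapped because NC-5 and NC-6 (59.5 and 55.6 FPKM) lay far below NC-1 to NC-4 (107 to 116). The difference was -0.30 on the log2 scale (SE 0.23, limma adjusted p = 0.276, exact permutation p = 0.249). Without NC-5 and NC-6 it was -0.61 with a limma adjusted p of 0.0165, and with limma's sample weights -0.51 (limma adjusted p = 0.000572). With size factors it was 0.02.

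Stat3 (chromosome 11, 100885098 to 100939540, minus strand), which carries IL-6 and IL-10 signals, was at 30.0, 34.7 and 37.3 FPKM in NC and at 48.4, 51.5 and 57.4 FPKM in COM. All COM samples lay above all NC samples, with little spread in either group. COM was higher by 0.62 on the log2 scale (SE 0.09, limma adjusted p = 0.000127, exact permutation p = 0.00216), or 1.55-fold in the means. Stat6 (chromosome 10, 127642986 to 127660957, plus strand), which carries IL-4 and IL-13 signals, was at 66.4, 70.0 and 73.9 FPKM in NC and at 42.4, 58.6 and 61.7 FPKM in COM. All COM samples lay below all NC samples, and COM-6 was lowest. Its log2 fold change was -0.32 (SE 0.10, limma adjusted p = 0.0201, exact permutation p = 0.00216), but with size factors it was 0.00014, and without NC-5 and NC-6 the limma adjusted p was 0.0609. Without COM-6 the change was -0.24 (limma adjusted p = 0.0037).

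**Figure D3:**
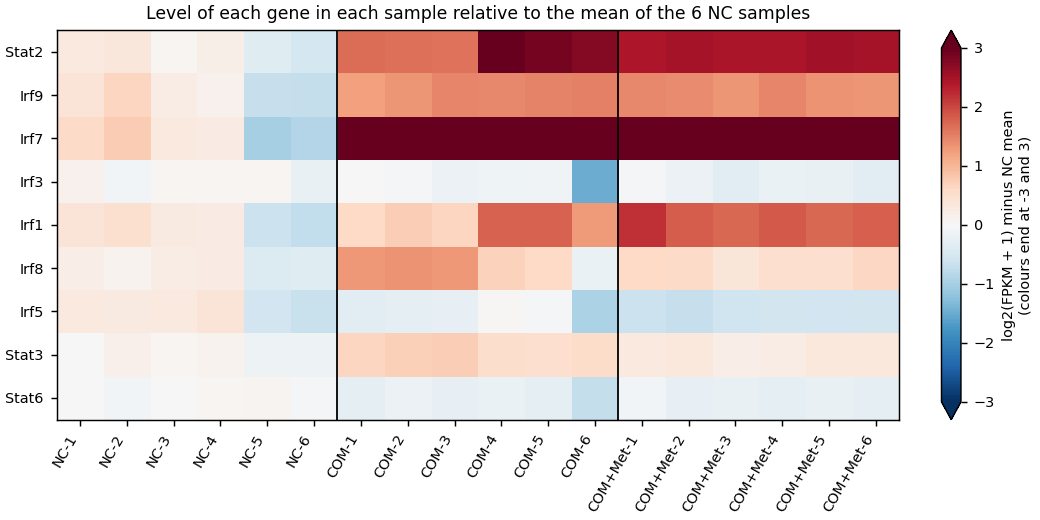
Each row is 1 of the 9 genes and each column 1 of the 18 samples, coloured by log2(FPKM + 1) minus the mean of the 6 NC samples (red higher, blue lower, colours ending at -3 and 3). Irf7 is beyond the end of the scale in all COM and COM+Met samples, Stat2 and Irf1 are deeper in COM-4 to COM-6 than in COM-1 to COM-3, and Irf8 shows the opposite order.

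Within groups, Stat2 varied most closely with Irf1 among the 9. After each group's mean was subtracted, Pearson's r over the 18 samples was 0.90 between Stat2 and Irf1, 0.88 between Irf7 and Irf1, 0.71 between Stat2 and Irf7, 0.56 between Stat2 and Irf9, and -0.44 between Stat2 and Irf8. Irf3 and Stat6 had an r of 0.92, and both were lowest in COM-6 among the COM samples. These points share libraries, and NC-5, NC-6 and the COM samples hold most of the spread, so that the values describe these samples only. The coefficient of variation of Stat2 was 45.0% in COM and 2.44% in COM+Met, that of Irf7 32.6% and 2.75%, and that of Irf8 36.2% and 6.78%.

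COM+Met against COM asks what Met added on macrophages above crystal-exposed TECs. Stat3 was lower in all COM+Met samples than in all COM samples, and Irf1 was higher with overlapping groups, both by less than 2-fold. Irf7, Stat2 and Irf9 had nearly the same means in the groups. Of the 9 genes 0 were called higher, against 0.608% of 10364 genes tested, and 0 lower, against 1.61%. By the adjusted p alone 1 was higher, against 5.77%, and 1 lower, against 7.58%. Groups did not overlap with COM+Met higher for 0 genes, against 5.83%, and with COM+Met lower for 1, against 5.34%. The 9 had a median of 0.02 on the log2 scale and all genes one of 0.0033.

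Stat3 was at 38.7, 41.7 and 42.3 FPKM (lowest, median and highest) in COM+Met, below its lowest COM sample at 48.4 and above its highest NC sample at 37.3. Its level was thus between those of the other groups in every sample. It fell by 0.35 on the log2 scale (SE 0.07, limma adjusted p = 0.0076, exact permutation p = 0.00216).

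Irf1 was at 107, 114 and 149 FPKM in COM+Met. COM-4 and COM-5 (both 111 FPKM) lay within this range and the other COM samples lay below it, while COM+Met-1 was highest. On the log2 scale the difference was 0.72 (SE 0.22, limma adjusted p = 0.0452, exact permutation p = 0.0173), and the limma adjusted p was above 0.05 in 15 of 24 alternatives. With limma's sample weights the difference was 1.09 (limma adjusted p = 1.53e-07) and without COM-4, COM-5 and COM-6 it was 1.19 (limma adjusted p = 6.68e-07), and Irf1 was then called, the 1 gene of the 9 for which this was so.

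For the other genes the differences between COM+Met and COM did not pass the test and the intervals were wide where the COM samples split. The interval of about 2 SE on the log2 scale ran from -0.29 to 0.70 for Stat2, from -0.32 to 0.36 for Irf7 and from -0.33 to 0.52 for Irf3. It ran from -0.77 to 0.13 for Irf8 and from -0.58 to -0.03 for Irf5. It was narrow for Irf9, from -0.16 to 0.13, and for Stat6, from -0.10 to 0.28. These intervals are not adjusted over the genes tested. That of Irf5 was thus wholly negative although its limma adjusted p was 0.172. Irf7 was at 554, 575 and 599 FPKM in COM+Met, above 4 COM samples and below the other 2. Stat2 was at 88.2, 91.3 and 94.1 FPKM, above COM-1 to COM-3 and below COM-4 to COM-6. Irf8, at 45.1, 51.2 and 54.7 FPKM, was below COM-1 to COM-4, and Irf5, at 54.4, 58.9 and 60.4 FPKM, was below COM-1 to COM-5. Without COM-6 both passed the test, Irf8 at -0.53 (limma adjusted p = 0.0177) and Irf5 at -0.43 (limma adjusted p = 0.0013). Without COM-4, COM-5 and COM-6, Stat2 was higher in COM+Met by 0.82 on the log2 scale (limma adjusted p = 6.43e-09) and Irf7 by 0.28 (0.000179), while Irf8 was lower, at -0.79 (4.10e-07), and Irf5 too, at -0.32 (5.29e-05). With sample weights the same 4 genes passed, at 0.77, 0.24, -0.78 and -0.33, and Irf3 at -0.16 (limma adjusted p = 0.0409).

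COM+Met against NC shares its samples with the other comparisons, and its values are given only beside theirs. Of the 9 genes 4 were called higher, against 5.66% of 10786 genes tested, and 0 lower, against 13.6%. By the adjusted p alone 6 were higher, against 19.3%, and 3 lower, against 55.9%. Groups did not overlap with COM+Met higher for 6, against 14.1%, and with COM+Met lower for 1, against 43.6%. The median was 0.53 for the 9 genes and -0.26 for all genes. The log2 fold changes were 6.07 for Irf7, 2.47 for Stat2, 1.85 for Irf1 and 1.39 for Irf9, where those of COM against NC were 6.05, 2.26, 1.13 and 1.40. Irf8 was higher by 0.53 and Stat3 by 0.27 without overlap (limma adjusted p = 0.00136 and 0.00106). Irf5 was lower by a log2 fold change of -0.60, Irf3 by -0.23 and Stat6 by -0.22 (limma adjusted p = 0.00817, 0.00836 and 0.000472). With size factors the signs for Irf3 and Stat6 turned, to 0.07 and 0.09, and Irf5 was at -0.29 with a limma adjusted p of 0.161.

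**Figure D4:**
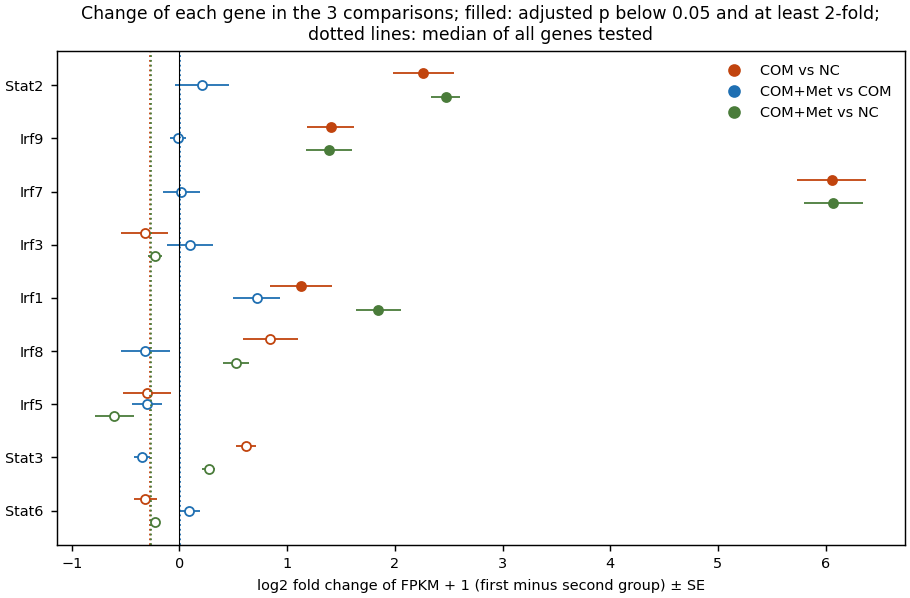
The horizontal axis gives the log2 fold change of FPKM + 1 with its SE for each of the 9 genes in the 3 comparisons (colours), filled where a gene was called, with dotted lines at the median of all genes tested (-0.27, 0.0033 and -0.26). Irf7, Stat2, Irf9 and Irf1 lie right of 1 in COM and in COM+Met against NC, no gene is filled in COM+Met against COM, and Irf3, Irf5 and Stat6 lie near the median of all genes in COM against NC.

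Hand-written lists were used to describe the genes around these factors, ordered from ligands to targets. They were chosen with earlier results of these data known, so that their counts are a description and no independent test. Counts and medians are over the members of a list that were tested, and in COM against NC they stand beside 5.99% of all genes called higher, 11.7% called lower and a median of -0.27. None of 11 interferon genes reached a mean of 1 FPKM, so that 0 were tested. Ifnb1, the interferon beta gene, had a mean of 0.0407 FPKM in NC, 0.446 in COM and 0.426 in COM+Met, and its ranges in COM (0 to 0.835) and NC (0 to 0.194) overlapped. In COM against NC, 3 of the 16 cytokine receptor genes tested passed the call as higher and 2 as lower, and their median was 0.14. The share called lower, 2 of 16, was near that of all genes. Ifnar2, a chain of the type I interferon receptor, rose from 44.5 ± 7.06 to 120 ± 27.7 FPKM, a log2 fold change of 1.39 (SE 0.16, limma adjusted p = 1.82e-05), while its partner Ifnar1 had 0.35 (limma adjusted p = 0.0893). The other receptors called were Il21r (2.02) and, chosen after their values were seen, Il12rb1, which were higher, and Il6ra (-1.28) and Il6st, the chains that bind IL-6 and pass on its signal, which were lower. The chains of the interferon gamma receptor moved apart, with log2 fold changes of -0.81 for Ifngr1 and 0.50 for Ifngr2 (limma adjusted p = 0.00135 and 0.00479).

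Of the 4 Janus kinases, Jak2 was called higher, from 28.1 ± 11.9 to 134 ± 40.2 FPKM in COM, a log2 fold change of 2.29 (SE 0.28, limma adjusted p = 3.13e-05). Tyk2, the kinase on IFNAR1, was higher by 0.60 (limma adjusted p = 0.00266), and Jak1, the kinase on IFNAR2, had 0.05 (limma adjusted p = 0.667). Among 24 activators of IRFs, 7 were called higher and 1 was called lower (median 0.30). The largest rise was that of Ifih1, the RNA sensor MDA5, at 2.69, followed among named genes by Dhx58 at 2.49, and the fall was that of Tbkbp1, an adaptor of TBK1, at -1.05. The kinases that phosphorylate IRF3 and IRF7 were higher by less than 2-fold, Tbk1 by 0.57 and Ikbke by 0.89 (limma adjusted p = 0.00149 and 0.00402). Among 25 inhibitors of STATs and IRFs, 5 were called higher and 1 was called lower (median -0.16). Usp18, which blocks IFNAR2, rose by 4.38, Socs1 by 2.26, Socs3 by 1.90 and Socs2 by 1.03, along with Trim21, and Socs6 fell by 1.03 on the log2 scale. Usp18 and Socs1 are known as interferon-induced genes, and Socs3 as one that STAT3 induces.

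All 30 genes listed as ISGF3 targets were called higher in COM against NC, with a median log2 fold change of 4.04, beside -0.27 for all genes and 5.99% called higher. Isg15, the ubiquitin-like modifier, rose from 13.4 ± 9.20 to 589 ± 401 FPKM (5.44, SE 0.54, limma adjusted p = 5.42e-06), and Ifit3 rose by 6.06. Of 16 genes listed as IRF1 targets, 15 were called higher, with a median of 2.15, and Gbp5 rose most, by 4.61. The list for IRF5 and IRF8 holds 14 genes, of which 13 were tested, 8 rose and 1 fell by this call, with a median of 2.75 (2.05 over all 14 with no filter). Ifi205 rose by 6.07 and Il18 fell by 1.11 on the log2 scale. Some genes, such as Nos2, stand in more than 1 list, and many targets are shared between these factors, so that the lists do not tell which factor acted.

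Of 17 genes listed as STAT3 targets 16 were tested, 4 rose and 2 fell by this call, and the median was 0.32. The share that fell was near that of all genes. Saa3, an acute phase protein, rose from 29.7 ± 21.1 to 5877 ± 3798 FPKM (7.74, SE 0.57, limma adjusted p = 4.71e-07), and Myc fell by 3.20 on the log2 scale. The others were Socs3, Il1rn and Lcn2, which rose, and Fos, which fell. Of 18 genes listed as STAT6 targets 15 were tested, 9 were called lower and 2 higher, and the median was -1.72. With no filter all 18 were tested, 8 were called lower and the median was -1.09. Mrc1, the mannose receptor of alternatively activated macrophages, fell from 79.9 ± 32.5 to 3.26 ± 1.93 FPKM (-4.29, SE 0.33, limma adjusted p = 6.08e-07), and Chil3, Mgl2, Clec10a, Ccl17, Pparg, Klf4, Egr2 and Cdh1 fell as well. Ccl17 overlapped, at 4.20 to 64.7 FPKM in NC and 4.41 to 7.77 in COM (limma adjusted p = 0.0448). Chil3 spread widely in NC, from 836 to 18218 FPKM, and was at 108 to 587 in COM. Ccl22 (3.57) and Socs1 rose. Arg1 had a mean of 1.89 FPKM in NC and 0.671 in COM (-0.74, limma adjusted p = 0.0132). Stat6 itself, at -0.32, had a far smaller change than these genes. Of 15 DNA-binding partners, Batf2, which pairs with IRFs, rose by 2.87 and Fos fell by 1.87 on the log2 scale. Of 7 other genes of the STAT and IRF families, 6 were tested, 2 rose and 0 fell by this call (median -0.25). With size factors the medians of the inhibitors, the DNA-binding partners and these 6 genes turned sign, from -0.16, -0.13 and -0.25 to 0.13, 0.17 and 0.03.

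**Figure D5:**
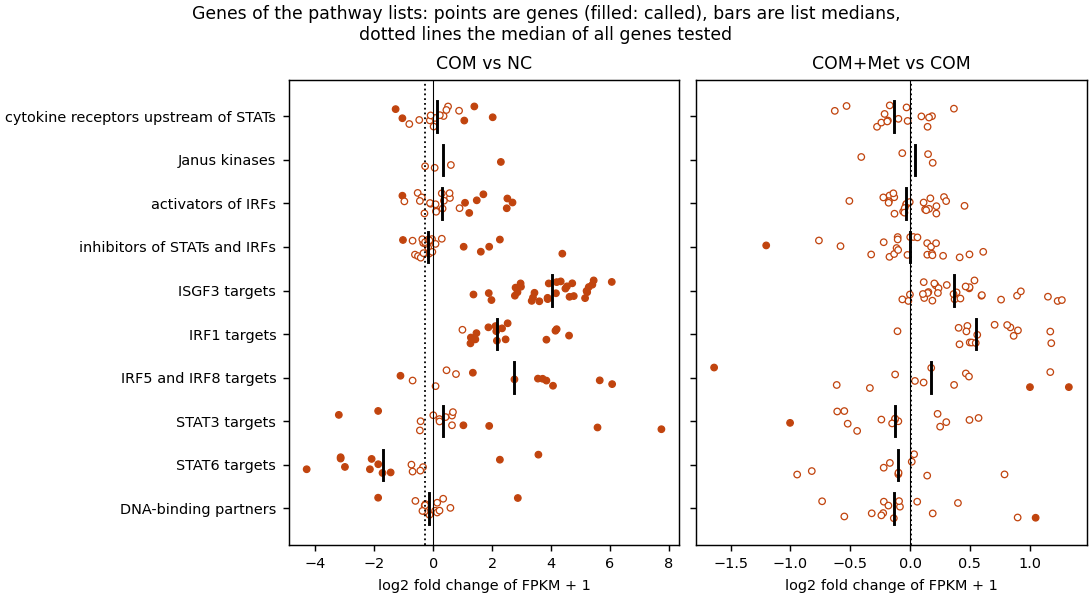
Points are the log2 fold changes of FPKM + 1 of single genes in 10 hand-written lists (rows), filled where called, for COM against NC (left) and COM+Met against COM (right, on a narrower axis), with bars at list medians and dotted lines at the median of all genes. All ISGF3 targets are filled and right of 0 in COM against NC, STAT6 targets lie mostly left of 0, and few genes are filled in COM+Met against COM.

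In COM+Met against COM few genes around the STATs and IRFs were called. Of the receptors, Janus kinases, IRF activators, ISGF3 targets, IRF1 targets and STAT6 targets 0 were called in either direction, beside 0.608% of all genes called higher and 1.61% lower, so that a count of 0 in lists of this size is near the background. The ISGF3 targets had a median of 0.37 and the IRF1 targets of 0.55, beside 0.0033 for all genes. At an adjusted p alone 0 of the 30 and 0 of the 16 passed. By that measure 2 of 16 receptors, 2 of 10 STAT6 targets and 3 of 15 STAT3 targets were lower. In these lists 0 were higher, beside 5.77% of all genes higher and 7.58% lower. Only 10 of the 18 STAT6 targets were tested here. The list for IRF5 and IRF8 had 3 higher and 2 lower of 13 tested. The inhibitors had 0 higher and 2 lower of 25, and the DNA-binding partners 1 and 2 of 15. The genes called were Tnf (1.33, from 193 ± 120 to 410 ± 31.3 FPKM), Cd40 and Batf (1.05), which rose, and Il1b, Il1rn, Socs2 and 1 gene of the STAT and IRF families, which fell. Il1b, the interleukin 1 beta gene, fell by 1.64 on the log2 scale, from 535 ± 67.8 to 170 ± 9.25 FPKM (SE 0.10, limma adjusted p = 5.61e-06). Socs2, an inhibitor of cytokine receptor signals, fell by 1.20, and Il1rn, the antagonist of the interleukin 1 receptor, by 1.00 (limma adjusted p = 0.047). Il1rn and Cd40 (1.00, limma adjusted p = 0.036) were at the edge of the call. The call took in 0 STAT3 targets with a pseudocount of 5, no filter, size factors or quantile normalisation. Of the list for IRF5 and IRF8, 1 gene was higher in place of 2 with a pseudocount of 5, no filter or equal sums. With a pseudocount of 5, 0 inhibitors, DNA-binding partners and other STAT and IRF genes were called. Ptpn22 had -0.76 (limma adjusted p = 0.011).

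Between COM+Met and NC the ISGF3 targets were called higher in 30 of 30 genes, with a median of 4.58, and the IRF1 targets in 16 of 16, with a median of 2.66. The STAT6 targets were called lower in 9 of 14 genes tested and higher in 2, with a median of -2.03. With no filter all 18 were tested, 10 were called lower and 2 higher, and the median was -1.57. The call took in 5.66% of all genes as higher and 13.6% as lower here. Of 13 genes tested from the list for IRF5 and IRF8 9 were higher and 1 lower, and of 16 STAT3 targets 3 and 2, the latter near the share of all genes. Among the 25 inhibitors 4 were higher and 1, Ptpn22, was lower (-1.19). Of 16 receptors 4 were higher and 2 lower, the latter Il6ra (-1.91) and Ifngr1 (-1.09) and again near the share of all genes. The 24 IRF activators had 5 higher, with Dhx58 first at 2.95, and 1 lower. Jak2 was higher by 1.89, and Batf2 and Batf by 3.77 and 1.11.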

How the data were processed

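RNA-seq of BMDMs was analysed in 18 samples, 6 for each group, with groups and replicate numbers taken from the sample labels. The authors deposited FPKM (fragments scaled to gene length and library total), with 1 column per sample. Bowtie 0.12.2 and builds mm8 and mm9 stand in the submitters' processing notes, with no role; for the quantifier and its annotation, none is given in the sources used here. FPKM does not give the read depth. Positions and exon overlaps were taken from GENCODE M21 on GRCm38 by Ensembl identifier, and promoter windows from RefSeq on GRCm38.p6. Whether strand was used in counting is not stated, so that reads in exons overlapping a gene on the opposite strand (Irf5 with Tnpo3 by 411 bases, Irf1 with Gm17334 by 135, Irf3 with Bcl2l12 by 88, Irf7 with Phrf1 by 45, Stat6 with Nab2 by 40, and Stat3 with a neighbouring gene by 72) cannot be assigned with certainty.

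Each comparison of 12 samples took the genes averaging 1 FPKM or more and fitted log2(FPKM + 1) with limma 3.58.1 (lmFit, eBayes with trend; R 4.3.3). p-values were adjusted by Benjamini-Hochberg over all genes tested, and genes were called at an adjusted p below 0.05 and at least 2-fold change. Fold changes on this scale understate those of low genes. For single genes an exact permutation test (two-sided, on mean log2 values) was added. The procedure was tested on simulated data. Tables and plots used matplotlib 3.10.9, numpy 2.4.6, pandas 2.3.3 and Python 3.11.15.

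The 9 genes, the lists, the markers and the alternatives were chosen with earlier results of these data known. Named genes were the 9, the 2 genes most correlated with each, of each list the called genes with the largest rise and fall in each comparison, and 15 fixed examples. Genes chosen outside this rule are said to be so or are the members of a small count. The single genes of the other STAT and IRF family list are not reported here. Alternatives were pseudocounts of 0.1 and 5, no filter or one of 5 FPKM, median-of-ratios size factors, quantile normalisation, equal sums (TPM), a replicate block, a joint fit of all 18 samples, arrayWeights, and samples left out singly or as NC-5 with NC-6, COM-4 to COM-6, and COM-6.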

Additional observations from a re-analysis of the deposited data

Results flagged for a closer look

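Each of the 9 genes was tested in each of the 3 groups for a sample far from the others of its group (the gap to the nearest sample divided by the group's range, above Dixon's 95% critical value). Of 27 groups tested 4 passed, and chance alone gives about 1 in 20. In COM, COM-6 was the lowest sample for Irf3 (4.73 FPKM, next 13.2, ratio 0.832) and for Stat6 (42.4 FPKM, next 56.7, ratio 0.740). In COM+Met, COM+Met-1 was the highest for Irf1 (149 FPKM, next 116, ratio 0.793) and for Stat6 (65.9 FPKM, next 59.5, ratio 0.765).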

How the results depend on the processing

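The count of called genes stayed within 1.5 times of 4 in COM against NC (3 to 5) and in COM+Met against NC under all alternatives run, but Irf1 and Irf8 changed places in it as given with those genes. In COM+Met against COM it moved from 0 to 1 with arrayWeights and to 1 with COM-4, COM-5 and COM-6 left out, the gene being Irf1 in both. Signs turned for small differences. With size factors, Irf5 (0.018) and Stat6 (0.00014) turned in COM against NC, Irf9 (0.0032) in COM+Met against COM, and Irf3 (0.068) and Stat6 (0.088) in COM+Met against NC, where quantile normalisation gave 0.0093 for Irf3. In COM+Met against COM, Irf9 was 0.029 with quantile normalisation, 0.036 with arrayWeights, 0.055 without COM-4 to COM-6 and 0.0045 without COM-6; Irf7 was -0.029 with equal sums and -0.051 without COM-6; and Irf3 was -0.159 with arrayWeights, -0.156 without COM-4 to COM-6 and -0.135 without COM-6. Leaving out single samples gave -0.050 to 0.0045 for Irf9, -0.052 to 0.133 for Irf7 and -0.135 to 0.160 for Irf3. The causes were not tested. Samples with the same replicate number did not deviate together (r from -0.22 to 0.06). In no comparison did a sample correlate best with its own number in the other group. Pairing by number was thus not seen. The labels do not state it, and the deviations include the splits within NC and COM, so that these values cannot exclude it. With the replicate block, 4, 0 and 4 of the 9 genes were called in the 3 comparisons, and the genes called among all genes went from 653 higher and 1273 lower to 649 and 1271 in COM against NC and from 63 and 167 to 49 and 153 in COM+Met against COM, where the limma adjusted p was 0.0665 for Stat3 and 0.0982 for Irf1 under the block. The total of genes called, higher and lower together, moved by over 1.5 times with a pseudocount of 5 (417 higher and 563 lower in COM against NC, 29 and 61 in COM+Met against COM, 438 and 679, from 611 and 1467, in COM+Met against NC) and, in COM+Met against COM, with a pseudocount of 0.1 (95 and 275), arrayWeights (216 and 503) and COM-4 to COM-6 left out (236 and 535). Genes called lower alone went from 1273 to 811 with size factors, 777 with arrayWeights, 818 without COM-4 to COM-6 and 833 with a filter of 5 FPKM in COM against NC, from 167 to 104 with that filter in COM+Met against COM, and from 1467 to 973 with size factors and 913 with that filter in COM+Met against NC. Of 252 list counts, run with the other pseudocounts, filters and scalings but with no sample left out, 235 stayed within 1.5 times. Low genes such as the interferons could not be tested at this FPKM, and the unknown depth leaves their precision unknown.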

Other observations

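For each of the 9 genes, the genes with the highest Pearson's r of log2(FPKM + 1) over the 18 samples, among those with an Ensembl identifier and a mean of at least 1 FPKM, were as follows. The points share libraries and group differences, so that the values are a description. Rnf213 (0.998) and Ifit3b (0.997), both induced by interferon, were nearest to Stat2, and Ccl5 (0.995) and Oas1g (0.995) to Irf7. Irf9 was nearest to Rtp4 (0.992) and Dyrk2 (0.992), and Irf1 to Slfn2 (0.986) and Nrp2 (0.980). Irf8 was nearest to Abca3 (0.983) and Sema4a (0.974), and Stat3 to Tgfbi (0.977) and Adcy6 (0.973). Irf3 was nearest to Stk11 (0.979) and Scaf1 (0.966), Stat6 to Riox1 (0.967) and Phrf1 (0.967), and Irf5 to Myd88 (0.949) and Rhob (0.909). Myd88 is the adaptor of Toll-like receptors that IRF5 is known to bind. After the group means were subtracted, 2 of these 18 neighbours were again among the nearest, Rnf213 for Stat2 (0.992) and Stk11 for Irf3 (0.978).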
